A study of Mus with 17 samples.

Results

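Transcripts of 5 immediate early response genes, Fos (ENSMUST00000021674), Jun (ENSMUST00000107094), Junb (ENSMUST00000064922), Atf3 (ENSMUST00000027941) and Egr1 (ENSMUST00000064795), were followed in the abdominal aorta of mice given angiotensin II with or without neferine. They were taken by identifier, 5 of the 39614 transcripts listed in all 17 deposited files, and all 5 were found in every file and passed the filter on low values. The mice were wild-type C57BL/6, and each group was treated for 42 days. Control mice (n = 5 libraries) received saline and double distilled water, AngII mice (n = 6) angiotensin II at 500 ng/kg/min and double distilled water, and the mice of the third group (n = 6) the same dose of angiotensin II and neferine, an alkaloid of lotus seeds, at 1 mg/kg/day. The labels give neither the animals per library nor their age. The p-values therefore rest on the spread among libraries, which may be technical, and no group was given neferine without angiotensin II. The study addressed the vascular effects of neferine under angiotensin II, a hormone that narrows vessels and raises blood pressure.

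Immediate early genes are switched on by signals without new protein synthesis, and their transcripts are short-lived, so their level in a tissue reflects a brief time window. Fos, Jun and Junb encode subunits of AP-1, a dimeric transcription factor in which a Fos or Jun family protein pairs with a Jun family protein. Atf3 encodes a stress-induced factor of the ATF/CREB family that can pair with Jun proteins, and Egr1 encodes a zinc finger transcription factor. In vascular smooth muscle, angiotensin II is known to induce Fos, Jun and Egr1 through its type 1 receptor within the first hours of stimulation.

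The deposited values are a linear abundance signal per transcript, whose unit is not named in the files and whose read depth is unknown. Because it is not stated whether the signal is scaled by transcript length, levels of different genes are not compared. Each gene was represented by 1 transcript, and other transcripts of the same gene were not analysed here. Library totals lay between 392615 and 443902 in Control, 405589 and 542841 in AngII, and 406264 and 569873 with neferine. AngII replicate 6 stood apart: its rank correlations with the remaining libraries had a median of 0.455, against 0.606 to 0.680 for the others, and 16.4% of its transcripts were listed at 0, against 4.39% to 10.1%. AngII replicate 2 and neferine replicate 1 had the largest share of signal in their 10 highest transcripts, 31.0% and 29.0%. Because the files do not pair identifiers with gene names, the markers of smooth muscle and of other cell types of the aorta, and the other genes of the AP-1 and EGR pathways, were not analysed here. In whole tissue, fewer cells of a type and less RNA per cell cannot be told apart.

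Fos, the inducible Fos-family subunit of AP-1, was highest in Control and low in most libraries of both infused groups. In Control it was at 5.09, 5.24, 18.0, 8.67 and 28.3 in replicates 1, 2, 4, 5 and 6. In AngII the lowest value was 0.496, the median 3.23 and the highest 10.3, and with neferine the lowest was 0.682, the median 1.84 and the highest 19.5. In each infused group 4 of the 6 libraries lay below every Control library, while AngII replicates 5 and 6 and neferine replicates 4 and 6 lay within the Control range, so the groups overlapped. The difference between AngII and Control was -1.60 ± 0.698 (SE) on the log2(signal + 1) scale, with a 95% interval of -3.08 to -0.13, and did not pass across all transcripts (limma, unadjusted p = 0.0350, adjusted p = 0.679). Between neferine and Control it was -1.59 ± 0.698 (SE) and did not pass either (limma, unadjusted p = 0.0359, adjusted p = 0.530). Without Control replicate 6, the library with the highest Fos signal, these differences were -1.27 and -1.26 with unadjusted limma p of 0.101 and 0.103. With any single library left out, the AngII difference lay between -1.92 and -1.27, and the neferine difference lay between -2.08 and -1.26.

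Jun, the main Jun-family partner of Fos, showed the smallest unadjusted p among the 5 transcripts against Control in the limma fit of all libraries without a block, though not in the exact permutation test of AngII, where that of Egr1 was smaller. It was at 43.5, 54.3, 103.3, 112.5 and 81.6 in Control replicates 1, 2, 4, 5 and 6. In AngII the lowest value was 25.6, the median 28.8 and the highest 90.9, and with neferine the lowest was 20.9, the median 31.8 and the highest 64.3. In each infused group 5 of the 6 libraries lay below every Control library, and the exceptions were AngII replicate 5 and neferine replicate 6. The mean difference was -1.07 ± 0.348 (SE, log2 scale; 95% interval -1.80 to -0.33) between AngII and Control, about the same as the -1.09 ± 0.348 (SE; interval -1.82 to -0.35) between neferine and Control. Neither passed (limma, unadjusted p = 0.00719 and 0.00631, adjusted p = 0.602 and 0.325). The exact two-sided permutation test over libraries gave unadjusted p of 0.0346 for AngII and 0.0130 for neferine. Without AngII replicate 5, the difference between AngII and Control was -1.34 on the log2 scale (limma, unadjusted p = 0.000313), and 0 of the 5 transcripts passed after adjustment in that fit. Without Control replicate 5 it was -0.92 (limma, unadjusted p = 0.0241), and these were the ends of its range over single libraries left out.

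Junb, a Jun-family subunit that is a weaker activator than Jun and can oppose it, did not share the low values of Fos and Jun in the infused groups. Its signal was 20.2, 15.4, 21.1, 13.1 and 20.3 in Control replicates 1, 2, 4, 5 and 6. In AngII it ranged from 16.7 through a median of 24.1 to 30.4, and with neferine from 16.6 through a median of 25.4 to 53.1. In AngII 4 libraries and with neferine 5 libraries lay above every Control library. The difference from Control was 0.35 ± 0.262 (SE, log2 scale) in AngII (limma, unadjusted p = 0.198, adjusted p = 0.785) and 0.66 ± 0.262 (SE) with neferine (limma, unadjusted p = 0.0216, adjusted p = 0.447). Neither passed, and the highest values, 53.1 and 40.8, came from neferine replicates 4 and 3.

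**Figure D1:**
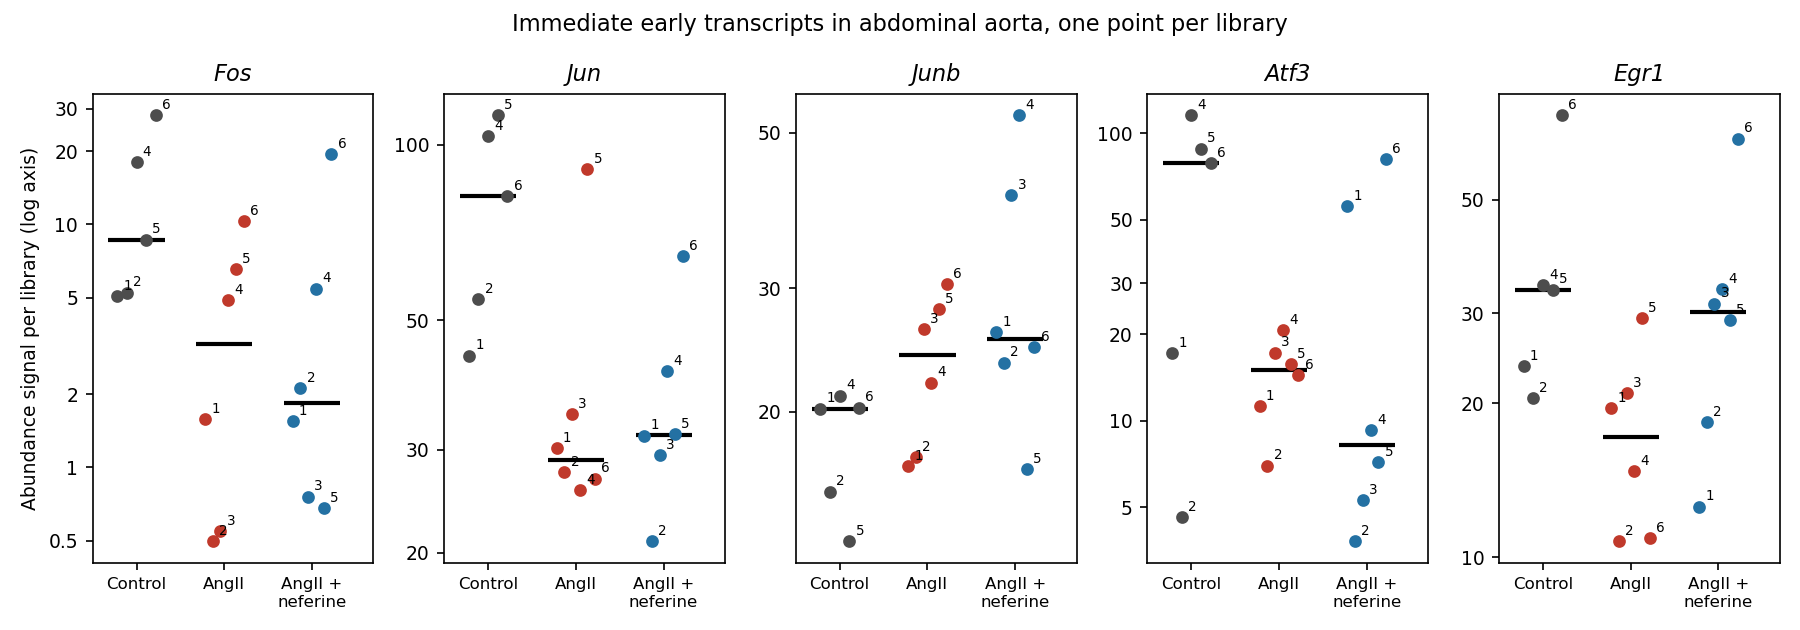
Abundance signal of each transcript (y axis, logarithmic, unit not named in the files) in every library of the Control, AngII and AngII with neferine groups (x axis); points are libraries with their replicate number and lines are group medians. Most infused libraries lie below Control for Fos and Jun, most infused libraries lie above Control for Junb, and Atf3 is split into high and low libraries in Control and with neferine.

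The opposite placing of Jun and Junb can be restated, from the same values, as their ratio within each library, which does not depend on how libraries are scaled. This ratio was chosen after the values were seen and is given as a description, and only its change between groups is read. The Jun to Junb ratio was 2.16, 3.53, 4.90, 8.62 and 4.03 in Control replicates 1, 2, 4, 5 and 6. It lay between 0.881 and 3.25 in AngII, with a median of 1.45, and between 0.720 and 2.60 with neferine, with a median of 1.04. In each infused group 5 of the 6 libraries lay below the lowest Control ratio, and the remaining library, AngII replicate 5 or neferine replicate 6, was within the Control range. The neferine and AngII ratios overlapped, and neferine replicates 3 and 4 had the lowest ratios of all libraries.

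**Figure D2:**
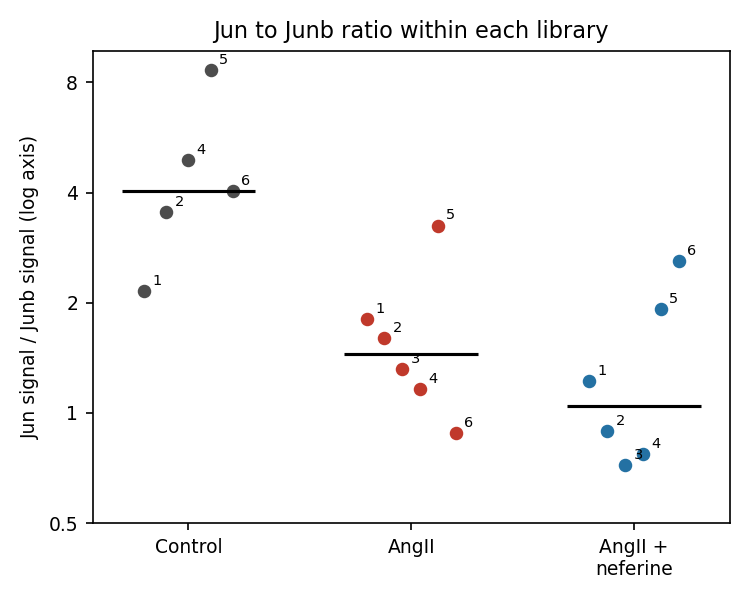
Ratio of the Jun signal to the Junb signal within each library (y axis, logarithmic) by group (x axis); points are libraries with their replicate number and lines are group medians. Control libraries lie between 2.16 and 8.62, and all but 1 library of each infused group lie below 2.16.

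Atf3, which is induced by many forms of cellular stress, had the largest within-group standard deviation of the 5 transcripts when the 3 groups were pooled. Control replicates 1 and 2 had 17.2 and 4.63, whereas replicates 4, 5 and 6 had 115.8, 88.4 and 78.7. With neferine, replicates 1 and 6 had 55.9 and 81.4 and the other 4 libraries lay between 3.80 and 9.27. The AngII libraries were close together, from 6.98 through a median of 15.0 to 20.7, all of them within the Control range. The highest library exceeded the lowest 25.0-fold in Control and 21.4-fold with neferine, against 2.97-fold in AngII, and a difference in spread was not tested. On the linear signal Fos was spread more widely in both infused groups, 20.8-fold in AngII and 28.6-fold with neferine. These folds rest on low Fos values, down to 0.496 in AngII and 0.682 with neferine. On the log2(signal + 1) scale the range with neferine was wider for Atf3 than for Fos. The pooled standard deviation was 1.47 on the log2 scale for Atf3 and 1.23 for Fos, and for Atf3 4.81% of all 29983 transcripts tested had a larger one. The differences of the means from Control, -1.39 ± 0.826 (SE, log2 scale) in AngII and -1.35 ± 0.826 (SE) with neferine, did not pass (limma, unadjusted p = 0.110 and 0.121, adjusted p = 0.750 and 0.680). Without Control replicate 2, the low Control library, they were -2.09 and -2.05 (limma, unadjusted p = 0.0139 and 0.0156), and again 0 of the 5 transcripts passed after adjustment. Without Control replicate 4, the highest, they were -0.99 and -0.95 (limma, unadjusted p = 0.265 and 0.285).

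Egr1, which angiotensin II and mechanical strain are known to induce in vessels, had its lowest group median in AngII, and its neferine median was near that of Control. In Control it was at 23.6, 20.4, 34.1, 33.3 and 73.2 in replicates 1, 2, 4, 5 and 6, with a median of 33.3. The AngII libraries ranged from 10.7 through a median of 17.2 to 29.4, and 4 of the 6 lay below every Control library. The neferine libraries ranged from 12.6 through a median of 30.2 to 65.8, and 3 of the 6 lay above every AngII library. AngII differed from Control by -0.96 ± 0.391 (SE, log2 scale; 95% interval -1.78 to -0.13), which did not pass (limma, unadjusted p = 0.0258, adjusted p = 0.672). Neferine differed from AngII by 0.71 ± 0.373 (SE; interval -0.07 to 1.50), which did not pass either (limma, unadjusted p = 0.0727, adjusted p = 0.952). That difference was 0.47 without neferine replicate 6 (limma, unadjusted p = 0.195) and 0.93 without neferine replicate 1 (limma, unadjusted p = 0.0195). Both comparisons use the same AngII libraries, and differences of opposite sign are therefore frequent. The difference between neferine and Control was -0.24 ± 0.391 (SE; interval -1.07 to 0.58; limma, unadjusted p = 0.543, adjusted p = 0.898). Without Control replicate 6 the difference between AngII and Control was -0.68 (limma, unadjusted p = 0.0931) and that between neferine and Control was 0.04.

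Across the comparison of AngII with Control, 4 of the 5 transcripts had a lower mean in AngII and Junb a higher one, where 52.5% of all transcripts had a lower mean. The median of the 5 log2 differences was -1.07, against -0.03 over all 29983 transcripts tested. Limma called 0 of the 5, as it called 0% of all transcripts. At an unadjusted p under 0.05 there were 3 of the 5 (Fos, Jun and Egr1, all lower), against 7.25% of all transcripts in either direction and 3.94% that were lower. The groups overlapped in all 5, and 0.807% of all transcripts had groups without overlap. Of all transcripts, 0.580% had a more negative difference than Fos and 2.40% a more negative one than Jun. This ranking takes no account of spread, which is wide for Fos. By unadjusted limma p, 5.07% of all transcripts had a smaller p than Fos and 1.19% a smaller one than Jun. The exact permutation test cannot go below p = 0.00216 here, which leaves it almost no room to pass adjustment over 29983 transcripts, so only its unadjusted p are given. They were 0.0584 for Fos, 0.0346 for Jun, 0.104 for Junb, 0.108 for Atf3 and 0.0260 for Egr1. Because some of the 5 transcripts vary together among libraries, they do not count as 5 independent observations.

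Neferine added to angiotensin II was compared with angiotensin II alone to see whether these transcripts differ when the alkaloid is given. Limma called 0 of the 5, and 0% of all transcripts passed. At an unadjusted p under 0.05 there were 0 of the 5, against 5.22% of all transcripts, and the groups overlapped in all 5, as in all but 0.263% of all transcripts. The differences of Fos, Jun and Atf3 were close to 0, at 0.01, -0.02 and 0.04 on the log2 scale, but their 95% intervals reached from -1.40 to 1.42, from -0.72 to 0.68 and from -1.62 to 1.71. On the linear signal the neferine to AngII ratio of means was 1.23 for Fos, 0.931 for Jun and 1.89 for Atf3. The ratio of medians was 0.568, 1.10 and 0.546, so the direction depended on the summary used. The single lower mean was that of Jun, and 50.5% of all transcripts had a lower mean with neferine. Junb differed by 0.31 ± 0.249 (SE; interval -0.21 to 0.84; limma, unadjusted p = 0.228, adjusted p = 0.952). It was 0.14 without neferine replicate 4 and 0.46 without neferine replicate 5. The intervals leave room for differences of more than 1 on the log2 scale in Fos, Atf3 and Egr1, and for Jun and Junb they end below that size.

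**Figure D3:**
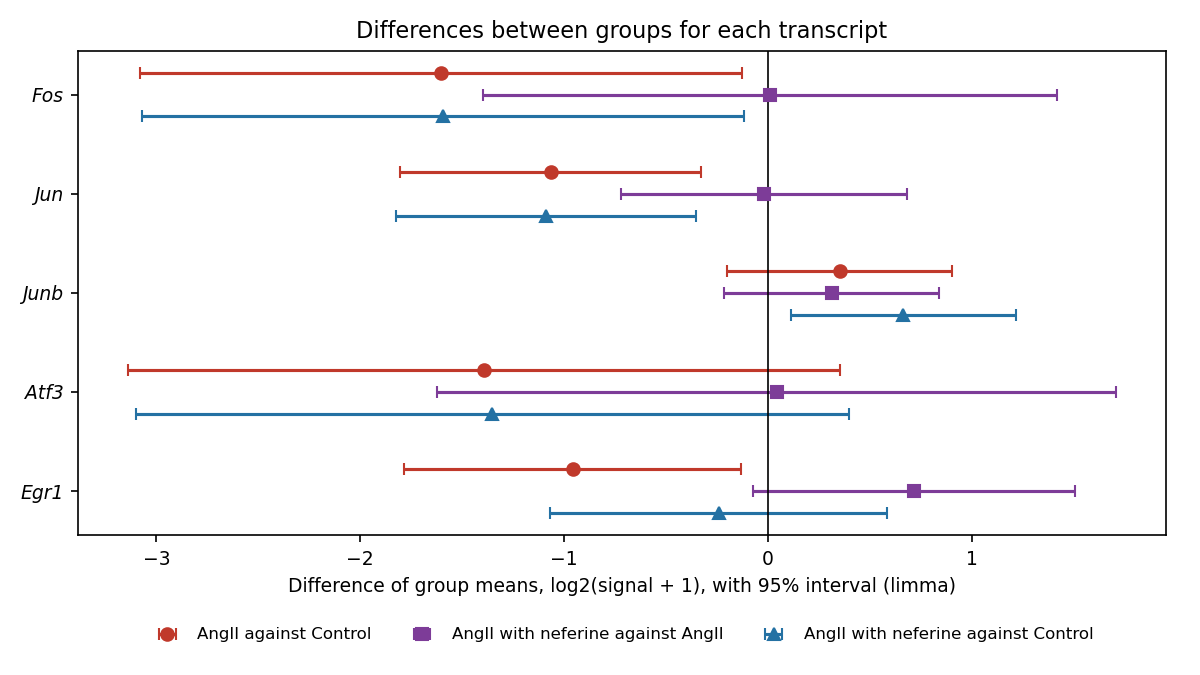
Differences of group means on the log2(signal + 1) scale (x axis) with 95% intervals from limma for each transcript (y axis) in the 3 comparisons. Fos, Jun and Atf3 have similar negative differences from Control in both infused groups and differences near 0 between those groups; 0 of the 15 differences passed after adjustment over all transcripts.

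Neferine with angiotensin II was compared with Control to see what differs from saline when both are given. Fos, Jun, Atf3 and Egr1 again had the lower mean, now with neferine, where 52.9% of all transcripts had a lower mean, and the median of the 5 differences was -1.09, against -0.03 over all transcripts. Limma called 0 of the 5, and it called 11 of the 29983 transcripts, or 0.0367%, a share too small to set the 5 apart. That number was 0 when Control replicate 2, 4 or 5 or neferine replicate 2 was left out, and it was 31 without AngII replicate 6. At an unadjusted p under 0.05 there were 3 of the 5, with Fos and Jun lower and Junb higher, against 8.74% of all transcripts in either direction, 4.52% lower and 4.23% higher. The groups overlapped in all 5, and 2.08% of all transcripts had groups without overlap. The comparison shares its Control libraries with that of AngII against Control, which makes like differences in both frequent. The neferine files also form a set of their own with other rows. A difference due to neferine and one due to the set of files therefore cannot be told apart, against Control or against AngII.

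Libraries differed in how many of the 5 transcripts they held above the median of the 17 libraries. Neferine replicate 6 was above it in all 5, Control replicates 4, 5 and 6, AngII replicate 5 and neferine replicate 4 in 4 of them, and AngII replicates 1 and 2 in 0. In the 3 Control libraries that were above it in 4, Junb was the transcript below the median. The share of transcripts listed at 0 was 4.39% in AngII replicate 5 and 7.45% in neferine replicate 6, the first the lowest of the 17 libraries and the second within their range. The shares of the 10 highest transcripts, 11.8% and 13.3%, were also within it. The part of these measures in the high values was not tested. AngII replicate 2, with 31.0% of its signal in 10 transcripts, had the lowest Fos, Atf3 and Egr1 signals of its group. When AngII replicates 2 and 6 and neferine replicate 1 were all left out, the differences between AngII and Control were -1.66 for Fos, -0.89 for Jun and -0.67 for Egr1 (limma, unadjusted p = 0.0484, 0.0473 and 0.101).

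**Figure D4:**
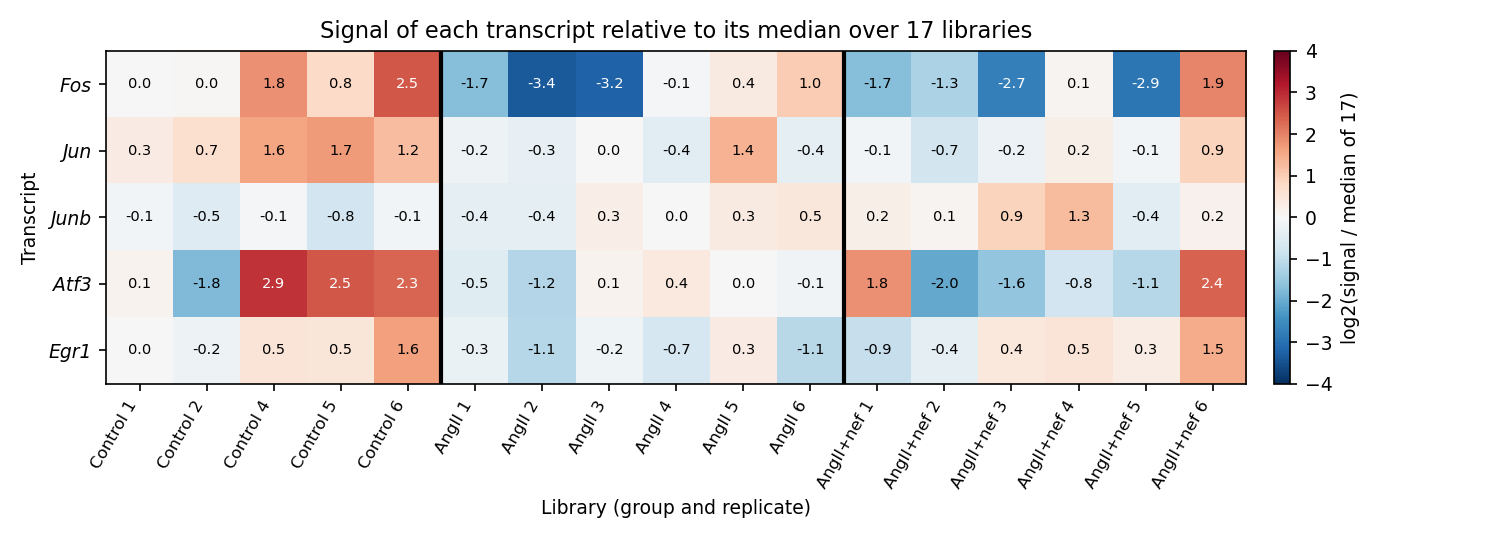
Signal of each transcript (rows) in each library (columns) relative to the median of that transcript over the 17 libraries, as log2 (colour and printed value); vertical lines part Control, AngII and AngII with neferine. Neferine replicate 6 is above the median in all 5 rows and Control replicates 4 to 6 in all rows but Junb.

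To describe whether the transcripts vary together among libraries of the same group, values on the log2(signal + 1) scale were centred on their group means and the 10 pairs were correlated over the 17 libraries. Pairs of other transcripts were not correlated, so a high r is not read as particular to these 5. The correlations were not repeated after scaling of the libraries. Jun and Egr1 had the highest Pearson r, 0.69 (Spearman rho 0.70), with two-sided permutation p of 0.00326 and 0.00321 and Benjamini-Hochberg adjusted p of 0.0326 and 0.0321 over the 10 pairs. Within the AngII libraries alone r was 0.81 and within the neferine libraries 0.78. Without the 2 libraries farthest from the median for Jun, AngII replicate 5 and neferine replicate 6, it was 0.51. Jun and Atf3 had an r of 0.59 and a rho of 0.67 (permutation p = 0.0105 and 0.00945, adjusted p = 0.0524 and 0.0472), with 0.63 without the same 2 libraries. Within AngII its r was 0.19 and within the neferine group 0.73, a difference that was not tested.

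Fos had an r of 0.53 with Jun, 0.53 with Egr1 and 0.58 with Atf3, with permutation p of 0.0384, 0.0433 and 0.0191 and adjusted p of 0.0866, 0.0866 and 0.0638, none of which passed. Their rho were 0.44, 0.40 and 0.51, with permutation p of 0.0889, 0.139 and 0.0317 and adjusted p of 0.222, 0.277 and 0.106. Without the 2 libraries farthest from the Fos median, AngII replicate 6 and neferine replicate 6, the r were 0.54, 0.55 and 0.47. Within AngII alone the r were 0.25, 0.01 and 0.50, and within the neferine group 0.81, 0.68 and 0.61. The rho were -0.14, 0.20 and 0.31 within AngII and 0.49, 0.54 and 0.49 within the neferine group. Each group has 6 libraries, and the difference between the groups was not tested. Junb had the lowest correlations, with an r of 0.03 with Atf3, 0.14 with Jun, 0.19 with Egr1 and 0.34 with Fos, and adjusted permutation p between 0.349 and 0.933. The rho of Junb were 0.04, 0.13, 0.25 and 0.33 in the same order, with adjusted permutation p between 0.335 and 0.887. Egr1 and Atf3 had an r of 0.40 and a rho of 0.34 (permutation p = 0.183 and 0.235, adjusted p = 0.306 and 0.335), and an r of 0.55 without neferine replicates 1 and 6. No correlation within Control is given, since it has 5 libraries and groups of at least 6 were used.

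**Figure D5:**
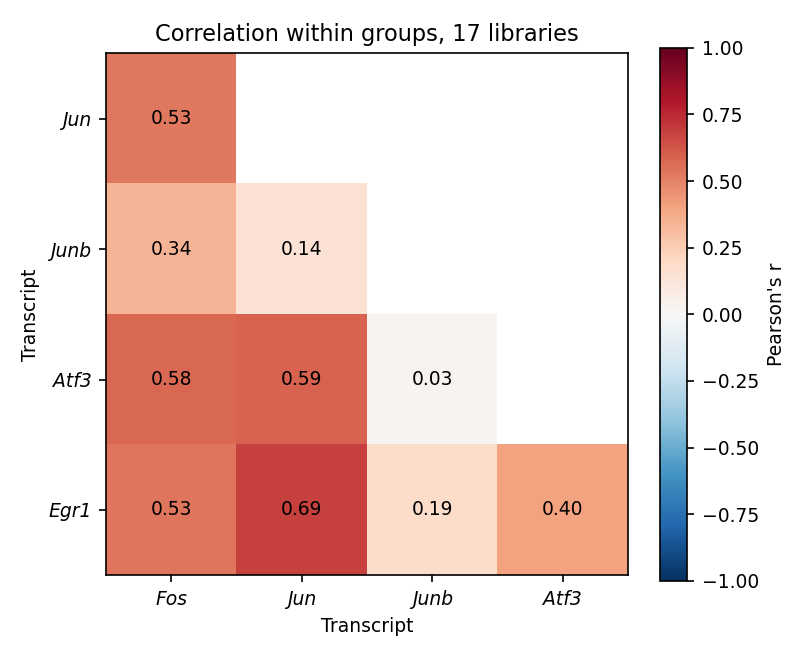
Pearson's r between the 5 transcripts (both axes) over 17 libraries, after centring log2(signal + 1) on group means; colour and printed value give r. Values for Fos, Jun, Atf3 and Egr1 lie between 0.40 and 0.69, and those for Junb between 0.03 and 0.34.

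Among the other 29978 transcripts tested, those most like the 5 were ranked by Pearson r over the 17 libraries with the mean of the 5 standardised profiles. ENSMUST00000029846 came first, with r = 0.92 (rho 0.78) and a signal from 36.3 through a median of 143.9 to 597.1. ENSMUST00000051241 followed, with r = 0.92 (rho 0.82) and a signal from 13.9 through a median of 20.8 to 47.8. The files do not pair these identifiers with gene names, and since they are the highest of many, their r is a description.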

How the data were processed

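Total RNA of abdominal aorta was depleted of ribosomal RNA and sequenced, per the labels' protocols. The deposited files hold, for each library, 1 linear abundance signal per transcript. The sources used here name no unit, aligner, assembler, quantification tool, genome build or annotation. Only limma is named, with no version or role, per the submitters' processing notes. Every transcript listed in the Control and AngII files has a mean of at least 0.5 in one of these groups, and the lowest group mean of the 5 transcripts was 4.06. Groups and replicate numbers came from the sample titles.

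The 39614 transcripts common to all files were filtered to those with a signal of at least 1 in at least 5 libraries, leaving 29983. Values were tested as log2(signal + 1), a scale that understates changes of low transcripts, with limma 3.58.1 in R 4.3.3 (1 term per group, all 17 libraries, trended and robust moderation). Benjamini-Hochberg adjustment ran over all 29983 transcripts, with a threshold of 0.05. The script was tested on simulated data. Permutation tests of single differences were exact, and those of correlations used 100000 resamples within groups. The rule for named transcripts took the 5 members and, without gene names, at most 2 others most like them. The members, lists and tests were chosen with earlier results of these data known. The pairing of the 5 identifiers with gene symbols was supplied with the choice of members, since the RefSeq table of assembly GRCm38.p6 lists 0 genes with an Ensembl identifier; the planned pathway and cell type lists were therefore not tested. No 2 libraries were duplicates, with at most 0.414% of transcripts at an equal signal above 0. Alternatives changed the pseudocount (0.1), filter, scaling, moderation, test, samples, weights and replicate block.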

Additional observations from a re-analysis of the deposited data

Results flagged for a closer look

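In 3 of the 15 groups of 5 or 6 values examined, 1 library lay far from the others by Dixon's ratio on the linear signal, where chance gives about 5% for normally distributed values. Egr1 was at 73.2 in Control replicate 6, and the next Control library was at 34.1. Fos was at 19.5 in neferine replicate 6, and the next neferine library was at 5.45. Jun was at 90.9 in AngII replicate 5, and the next AngII library was at 34.5. On the log2(signal + 1) scale used in the tests, the ratio of Jun was 0.767 and still above the critical value for its group size, and those of Egr1 (0.603) and Fos (0.462) were below it. In each case the library was the highest of its group, and the cause was not tested.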

How the results depend on the processing

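Limma called 0 of the 5 transcripts in each of the 3 comparisons, also under the 26 alternatives fitted with limma. The exact permutation test, with a smallest possible p of 0.00216, has almost no room to call any of the 29983 transcripts and is not read as support. In each comparison 17 of the 27 alternatives change the difference of a transcript, and the others leave it as it is by construction. The differences of Fos, Jun, Junb and Atf3 from Control kept their direction in these 17, for both infused groups, as did that of Egr1 in AngII and those of Junb and Egr1 between neferine and AngII. The unadjusted p of Jun was under 0.05 in all 17 for both infused groups, and those of Fos in 12 for AngII and 10 for neferine. The difference of Egr1 between neferine and Control changed sign in 1 of the 17. Without Control replicate 6 it went from -0.24 to 0.036 on the log2 scale (limma, unadjusted p = 0.925).

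Between neferine and AngII, where the differences were near 0, signs turned. Atf3 was -0.0037 with a pseudocount of 0.1, -0.38 with library weights and -0.54 without the 3 libraries that stand apart, and Jun was 0.014 with median-ratio scaling. With 1 library left out, Fos ranged from -0.48 to 0.32, Jun from -0.20 to 0.25 and Atf3 from -0.45 to 0.37. With AngII replicate 5 and neferine replicate 6 both left out, an alternative added after seeing the data, Fos was -0.28, Jun 0.073 and Atf3 -0.41. Without centring, the r of Junb was -0.026 with Fos, -0.24 with Jun and -0.18 with Atf3.

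Counts over all transcripts moved more. For AngII against Control the count of 0 became 7 with only these 2 groups fitted, 6 with library weights, 6 without the 3 libraries and 0 to 12 with 1 library left out. For neferine against AngII it became 2, 3, 15 and 0 to 11. For neferine against Control the count of 11 became 26, 63, 106 and 0 to 31, was 4 without a filter, 0 in the exact permutation test, which its smallest p all but fixes, and 2 without AngII replicate 5 and neferine replicate 6. The cause of the other changes was not tested. With the replicate number as a block the counts were 0, 0 and 0. In that fit Fos differed from Control by -1.36 ± 0.380 (SE) in AngII and by -1.35 ± 0.380 (SE) with neferine. Neither passed (limma, unadjusted p = 0.00394 and 0.00412, adjusted p = 0.651 and 0.372), but Fos then had the smallest unadjusted p of the 5 transcripts against Control. Over all transcripts tested, the libraries did not pair by replicate number. Deviations correlated above 0.1 in 0 of 5, 0 of 6 and 0 of 5 same-numbered pairs, and 0, 0 and 2 libraries correlated best with their own number. A link in a single transcript is not excluded by this. Fos was highest in replicate 6 of all 3 groups, at 28.3 in Control, 10.3 in AngII and 19.5 with neferine. No limit from depth could be computed, as counts are not part of the deposited values.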
